A study of Mus musculus with 6 samples.

Results

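The Hox cluster genes were taken as every gene whose name consists of Hox, a cluster letter from a to d and a paralog number. This rule found 39 genes among the 23227 genes with exonic values and the same 39 among the 23231 genes with intronic values. They comprised 11 HoxA genes on chromosome 6, 10 HoxB genes on chromosome 11, 9 HoxC genes on chromosome 15 and 9 HoxD genes on chromosome 2. All 39 were found in the RefSeq and GENCODE gene tables.

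Total RNA depleted of ribosomal RNA had been sequenced from immortalized monoclonal lines of murine mesenchymal stem cells, multipotent stromal cells given as fibroblasts in another label. The samples formed 6 groups: untreated Dicer WT cells, untreated Dicer KO cells, and Dicer WT cells with vector transfection, Pbx3 over-expression, Sox9 over-expression or Tead4 over-expression. Dicer is the enzyme that cuts microRNA precursors into mature microRNAs. The lines are monoclonal, which means that a difference of genotype and one of clone cannot be told apart. The labels give no promoter for the 3 added factors.

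Hox genes encode homeodomain transcription factors that give cells a position along the head-to-tail axis and along the limb. They lie in 4 clusters in which the order of the genes follows the order of the body regions that use them, and genes with the same number in different clusters are paralogs. Cultured stromal cells and fibroblasts are known to keep a Hox pattern of the body site they came from. The clusters also hold microRNA genes of the miR-10 and miR-196 families, whose best known targets include Hox transcripts, which makes the clusters a natural place to look in cells without Dicer.

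The microRNAs of the clusters are shown because they link the genes studied to the deleted enzyme. Mature sequences came from RefSeq (GRCm38.p6), and capitals mark the seed, bases 2 to 8 from the 5′ end. The miR-196 pair and the miR-10 pair each share a seed.
miR-196a: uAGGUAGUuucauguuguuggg
miR-196b: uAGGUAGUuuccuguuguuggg
miR-10a: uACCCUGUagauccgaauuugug
miR-10b: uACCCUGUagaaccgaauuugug
The miR-196a sequence lies in the HoxB cluster at chr11:96265187-96265208 and again in the HoxC cluster at chr15:102973365-102973386, both on the plus strand. The miR-196b sequence lies in the HoxA cluster at chr6:52230129-52230150 on the minus strand. The miR-10a sequence lies in the HoxB cluster at chr11:96317186-96317208 and the miR-10b sequence in the HoxD cluster at chr2:74726074-74726096, both on the plus strand. The 6 microRNA genes of the clusters were listed at 0 exonic reads in all 12 libraries, so the mature microRNAs were not measured here.

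The match to the miR-196 seed, ACTACCT on the transcript's strand, was present in the annotated 3′ UTR of 9 of 39 Hox genes, against 6.09% of 20979 genes with such a UTR. Shorter or partly paired sites were not searched. Hoxa4, Hoxa5, Hoxa7, Hoxa9 and Hoxc8 were among the 9. The match to the miR-10 seed, ACAGGGT, was present in 4 of 39, Hoxa3 among them, against 12.5% of all genes. A match is a description of the letters and does not show that a site is used. The miR-196 match of Hoxa5 is followed by an A, and those of Hoxa4 and Hoxa9 are not. Hoxa4 and Hoxa5 are not printed, and their Dicer KO values below are lower than those of the printed genes. Matches of Hoxa9, Hoxa7 and Hoxc8 are printed from GENCODE M21 transcripts (GRCm38), with the seed match in capitals.
Hoxa9: aaggaaagaaaACTACCTttttatataat
Hoxa7: acagccaaaatACTACCTagcacaggcct
Hoxa7: ggcactcccaaACTACCTatgggcccagc
Hoxa7: ccatgatcaatACTACCTactactagccc
Hoxa7: actagccctaaACTACCTattgtgtgctg
Hoxc8: tcacaactctaACTACCTgtcagatagtt
Hoxc8: atctttaacatACTACCTaaagggaacct
The Hoxa9 window is chr6:52223890-52223918 on the minus strand and holds the single match of this gene. The Hoxa7 windows, also on the minus strand, run from chr6:52215390-52215418 to chr6:52215200-52215228, and all 4 matches are followed by an A. The Hoxc8 windows are chr15:102992979-102993007 and chr15:102993736-102993764 on the plus strand. Among genes with a 3′ UTR of similar length, 4.52% held a match for the length of Hoxa9, 4.86% for Hoxa7 and 3.98% for Hoxc8. Hoxc13, a gene that a comparison below turns on, holds no match to either seed.

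Each group mean in the deposited tables was the mean of 2 libraries, and the reads of both libraries were recovered from it. Exonic depth was 6130267 to 23501655 reads and intronic depth 3156973 to 10205497 reads per library. Library 1 is the one with the larger size factor, and the numbers pair nothing between groups or between exonic and intronic tables. Nothing says whether the 2 libraries of a group were separate cultures, so p-values reflect the spread of these libraries alone, and that spread may be technical. The Hox genes also differed between the 2 libraries of a group. Among the 20 HoxA and HoxC genes, all 20 were higher in Dicer WT library 2, with a median log2 difference in exonic reads of 0.50 against 0.09 over 11706 genes. In Dicer KO cells 18 of 20 were higher in library 2, with a median of 0.37 against −0.01. In Sox9 cells 14 of 20 were higher in library 2, with a median of 0.47 against 0.07. In vector, Pbx3 and Tead4 cells 7, 12 and 11 of the 20 were higher, with medians of −0.09, 0.06 and 0.04 against −0.06, 0.07 and 0.03. Dicer1 stood at 1407 and 1343 normalised counts in Dicer WT and 935 and 1067 in Dicer KO, and a sum over the whole gene does not check the deletion. Pbx3 stood at 259 and 221 in vector and 36740 and 27165 in Pbx3 cells, Tead4 at 38.8 and 40.7 against 6866 and 5050, and Sox9 at 116 and 47.5 against 179 and 186, so that Sox9 alone of the 3 did not pass (1.29 ± 0.39, limma adjusted p = 0.272). The 13 stromal markers summed to 5883 to 11465 RPM (reads scaled to the library's total), with Thy1 listed at 0 in every library. Blood, endothelial and epithelial markers, among them Cd3e and Cdh5 at 0, summed to at most 0.64 RPM and 4 neuronal markers to 1.75 to 7.08 RPM. In bulk RNA, fewer cells that express a gene and less RNA per cell cannot be told apart.

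The cells used the HoxA and HoxC clusters, and HoxB and HoxD were nearly silent in all 6 groups. Every one of the 11 HoxA and 9 HoxC genes had at least 10 exonic reads in each of the 12 libraries. HoxA genes together gave 39813 exonic reads over the 12 libraries, between 191 and 336 RPM. HoxC genes together gave 10875 reads, between 49.1 and 104 RPM. HoxA therefore held 78.5% of all Hox exonic reads, with a range of 69.0% to 83.9% over the libraries.

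The 10 HoxB genes together gave 21 exonic reads and the 9 HoxD genes gave 4. Hoxb1, Hoxb2, Hoxb5, Hoxb8, Hoxd1, Hoxd3, Hoxd8, Hoxd10 and Hoxd11 had 0 exonic reads in every library. Hoxb9 had 11 reads, of which 4 were in Dicer KO library 1 and 4 and 3 in the Sox9 libraries. Hoxb13 had 4 reads and Hoxb3 had 3, while Hoxb4, Hoxb6, Hoxb7, Hoxd4, Hoxd9, Hoxd12 and Hoxd13 had 1 read each. A count of 0 over a group allows up to 0.0719 RPM for Dicer WT and 0.0679 for Dicer KO. The limit is 0.153 for vector, 0.149 for Pbx3, 0.216 for Sox9 and 0.154 for Tead4 cells, with 3 reads over both libraries as the limit. These limits cover counting error only. All 19 HoxB and HoxD genes have too few reads for any comparison of exonic reads.

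**Figure D1:**
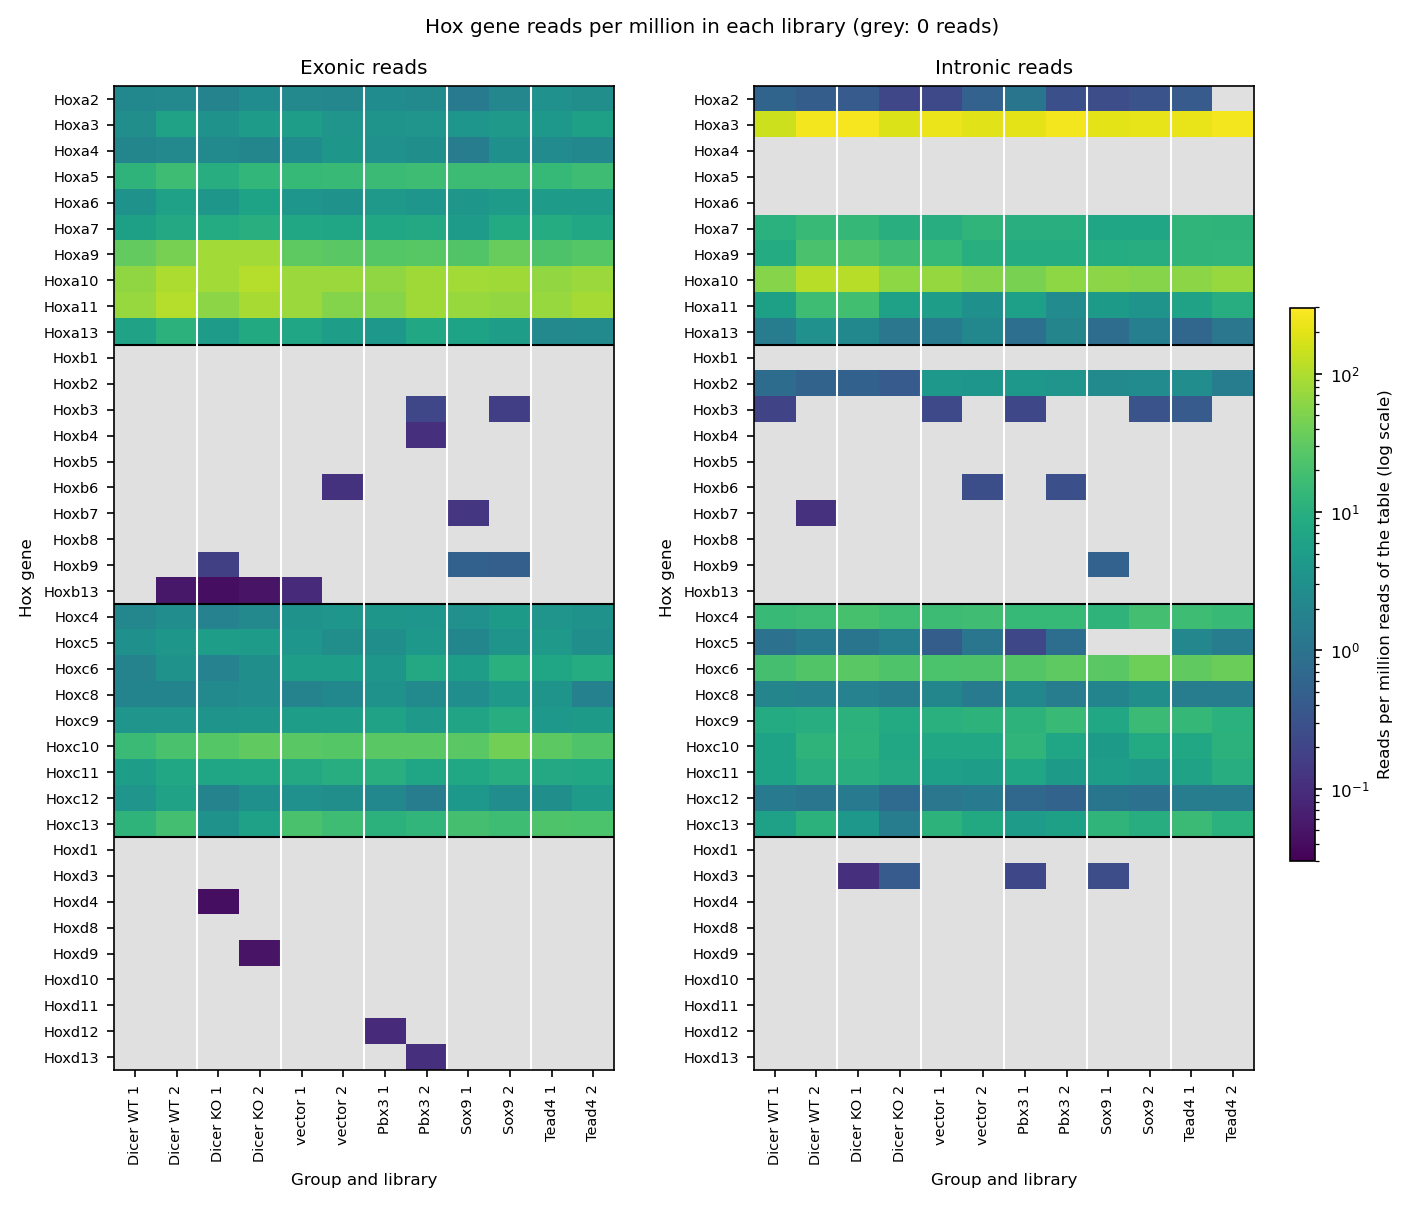
Exonic (left) and intronic (right) RPM, on a log colour scale, for the Hox genes (vertical) in the 12 libraries (horizontal), with grey for 0 reads and black lines between clusters. The HoxA and HoxC blocks are filled in every group in exonic reads, whereas HoxB and HoxD hold 21 and 4 exonic reads in all.

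Intronic reads, which come mostly from unspliced transcripts, followed the same division with 1 exception. HoxA gave 22634 intronic reads, HoxC 5612, HoxB 133 and HoxD 7. Hoxb2, a gene used in the hindbrain in the embryo, had 121 of the 133 HoxB reads although it had 0 exonic reads. Its intronic reads numbered 8 and 5 in Dicer WT and 5 and 4 in Dicer KO. Vector libraries had 18 and 14, Pbx3 libraries 19 and 13, Sox9 libraries 9 and 8 and Tead4 libraries 13 and 5. The Dicer libraries had 4 to 8 of these reads although they were the deepest. Hoxd3 held all 7 HoxD reads.

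Hoxa3 held 14958 of the HoxA intronic reads, which was 66.1% of them. Its annotated span contains Hoxa4, Hoxa5 and Hoxa6, which were listed at 0 intronic reads in all libraries, and how reads within such a span were assigned is not given in the sources used here. Its intronic value therefore cannot be assigned to Hoxa3 alone. Hoxb3 likewise spans Hoxb4 and Hoxd3 spans Hoxd4.

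Within the active clusters, the genes of paralog groups 9 to 11 carried most of the HoxA signal. Hoxa9, Hoxa10 and Hoxa11, which pattern the upper and middle limb and the urogenital tract, together gave 81.6% of HoxA exonic reads, with a range of 76.8% to 85.5%. Genes were compared per length in RPKM, which is RPM per kilobase of annotated exon. Hoxa11 stood at 32.0 and 47.0 RPKM in Dicer WT and 26.8 and 39.6 in Dicer KO. Vector cells had 33.1 and 23.5 RPKM. Hoxa10 stood at 20.7 and 31.0 in Dicer WT and 26.3 and 34.8 in Dicer KO. Vector cells had 24.0 and 23.9 RPKM. Hoxa11 was above Hoxa10 within 11 of 12 libraries, and below it in vector library 2. Across libraries, the values of the 2 genes overlapped in Dicer KO, vector and Pbx3 cells. Hoxa10 was above Hoxa9 and above Hoxc10 in 12 of 12 libraries.

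The next levels in the order differed between the groups. In Dicer WT, Hoxa9 followed at 10.2 and 14.2 RPKM and Hoxc10 at 8.39 and 11.3. Hoxa9 was higher within each library, while the values overlapped across libraries. In Dicer KO, Hoxa9 stood at 25.6 and 26.3 and Hoxc10 at 13.7 and 16.3, without overlap. In the vector, Pbx3, Sox9 and Tead4 libraries Hoxc10 was above Hoxa9 in all 8, for example at 14.8 and 13.8 against 9.37 and 8.92 in vector. These 4 groups come from tables normalised apart from the Dicer table, so no test joins them. Hoxa5, a regulator of lung and axial skeleton, had group means of 6.05 to 8.88 RPKM.

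Within HoxC the highest gene was Hoxc10, a gene of hindlimb and lumbar identity, with 38.2% of HoxC exonic reads over all libraries. This share ran from 30.1% in Tead4 library 2 to 49.5% in Dicer KO library 1. Hoxc13, a regulator of hair and nail keratins, had 19.9%, but its share ran from 6.37% in Dicer KO library 1 to 28.1% in Tead4 library 2. The lowest group means per length were 0.790 for Hoxc4 in Dicer KO and 0.955 for Hoxa13 in Tead4 cells. Hoxa2 to Hoxa4 and Hoxc4 to Hoxc9 had group means of at most 1.73 RPKM in Dicer WT and Dicer KO. Hoxa5, Hoxa6 and Hoxa7 were higher.

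**Figure D2:**
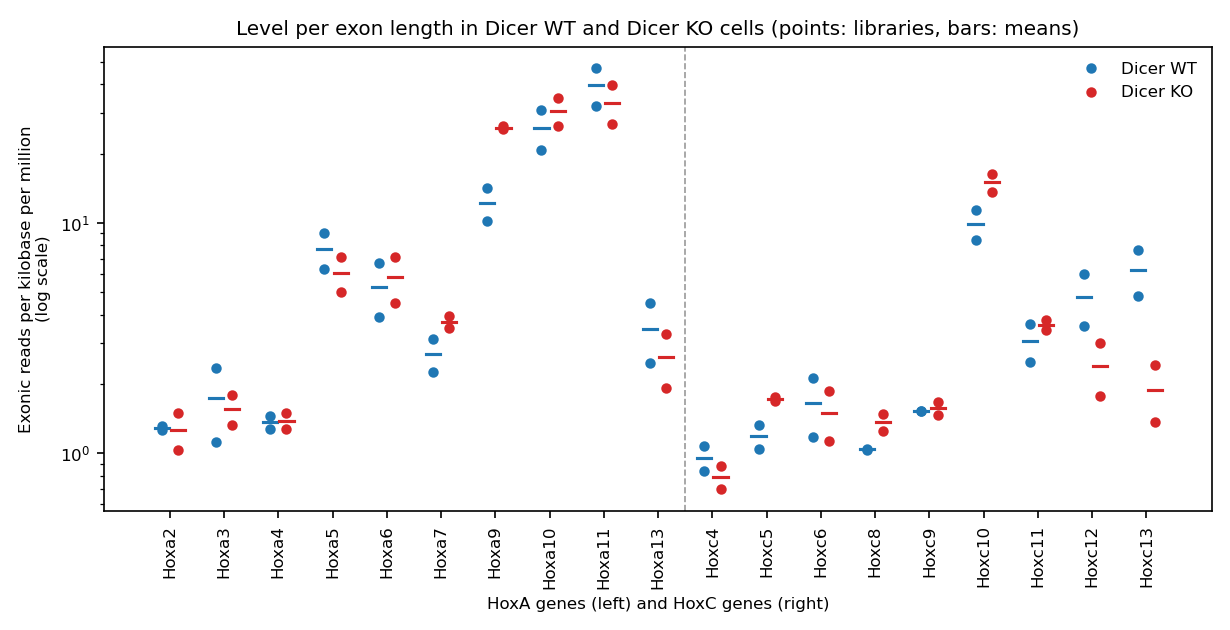
Exonic RPKM, on a log axis, for HoxA and HoxC genes in Dicer WT (blue) and Dicer KO (red), with a point for each library and a bar for the mean. Hoxa9 to Hoxa11 form the peak of HoxA and Hoxc10 that of HoxC, and the red and blue points separate most for Hoxa9 and Hoxc13.

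Dicer KO was compared with Dicer WT to see which Hox transcripts differ with the labelled loss of Dicer, although loss of mature microRNAs was not measured. Hoxa9 rose and Hoxc13 fell, and the other tested members did not pass. Hoxa9 had 718 and 947 normalised counts in Dicer WT and 1778 and 1815 in Dicer KO. Both KO libraries were above both WT libraries. The log2 fold change was 1.12 ± 0.18 (SE, 2 libraries per group, limma adjusted p = 0.018). Hoxc13 had 258 and 389 normalised counts in Dicer WT and 72.4 and 127 in Dicer KO. Both KO libraries were below both WT libraries. Its log2 fold change was −1.71 ± 0.37 (limma adjusted p = 0.037). Here and below, fold changes are on the scale of log2(normalised count + 1) and "rose" and "fell" mean a limma adjusted p under 0.05 over all genes tested.

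Of 39 members, 16 had a mean of at least 50 normalised counts and were tested, 4 lay between 10 and 50, 4 were below 10 with a read, and 15 had no read in this comparison. The 2 calls among 16 stand against 16.6% of 10706 genes called, with 9.28% higher and 7.36% lower. In the authors' deposited table the same 2 genes had an adjusted p under 0.05, at 0.000296 for Hoxa9 and 0.0103 for Hoxc13, where 14% of the 10706 genes did. For 7 of the 16 members all KO libraries lay on 1 side of the WT libraries, 4 higher and 3 lower, against 63.3% of all genes. The median log2 fold change of the 16 was −0.00 against 0.01 for all genes. None of these shares is above that of all genes.

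The Hoxa9 call needed both KO libraries and the Hoxc13 call needed KO library 1. Without Dicer KO library 1, Hoxa9 stood at 1.14 (limma adjusted p = 0.0805) and Hoxc13 at −1.31 (adjusted p = 0.124), and 0 of 16 members passed. Without Dicer KO library 2, Hoxa9 stood at 1.11 (limma adjusted p = 0.076) and Hoxc13 alone passed, at −2.11 (adjusted p = 0.0375). In these 2 fits the number of genes called among all 10706 dropped as well, to 535 and 597 from 1782.

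**Figure D3:**
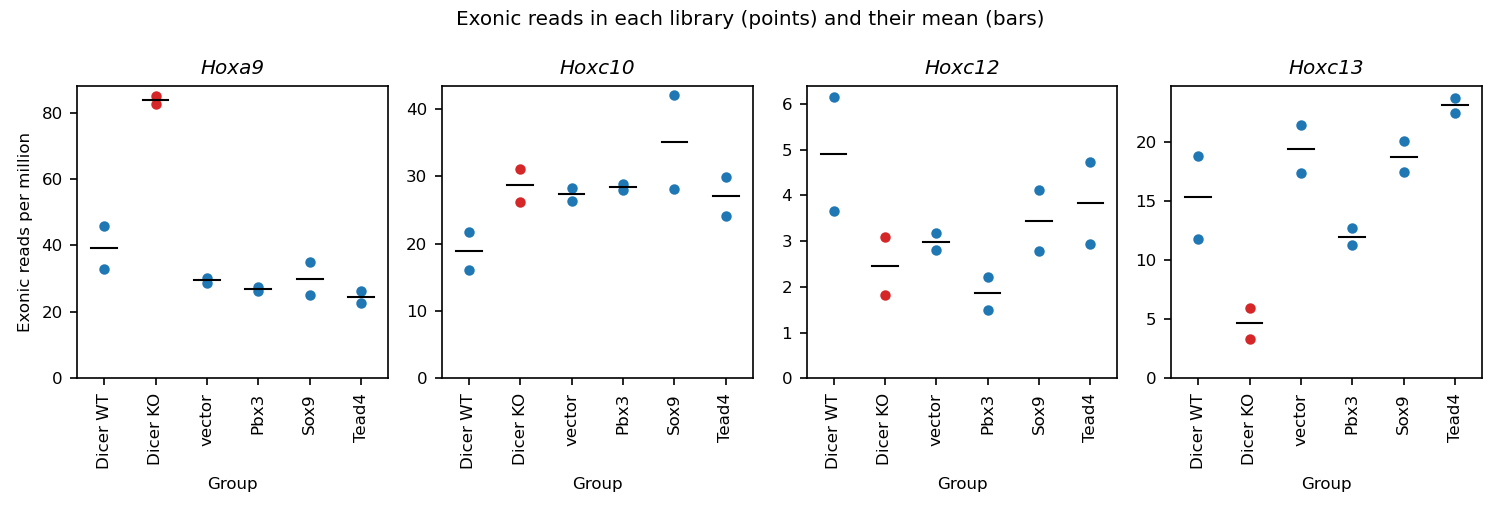
Exonic RPM (vertical) of Hoxa9, Hoxc10, Hoxc12 and Hoxc13 in the 6 groups (horizontal), with a point for each library, red for Dicer KO and blue for the others, and a bar for each mean. Dicer KO holds the highest values of Hoxa9, at 82.5 and 84.9, and the lowest of Hoxc13, at 3.36 and 5.94.

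The Hoxa9 level in Dicer KO was above that of every other library, not only of its own controls. In RPM it stood at 82.5 and 84.9 in Dicer KO and between 22.8 and 45.9 in the other 10 libraries. Hoxa9 made up 31.1% and 25.2% of HoxA exonic reads in Dicer KO and 15.6% and 14.8% in Dicer WT. Hoxc13 stood at 3.36 and 5.94 RPM in Dicer KO and between 11.3 and 23.7 in the other libraries. Levels outside the Dicer groups come from tables normalised separately and serve as a description.

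Genes near Hoxa9 and Hoxc13 in their clusters did not pass. Hoxc10 had 351 and 447 normalised counts in Dicer WT and 563 and 666 in Dicer KO, a log2 fold change of 0.63 ± 0.20 (limma adjusted p = 0.0911). Its libraries did not overlap between the groups. Hoxc12, next to Hoxc13 in the cluster, had 80.1 and 127 in Dicer WT and 39.4 and 66.1 in Dicer KO, a change of −0.97 ± 0.42 (adjusted p = 0.169). Hoxc11, on the other side of Hoxc12, was at 0.27 ± 0.27. In HoxA, Hoxa10 was at 0.27 ± 0.23 and Hoxa11 at −0.24 ± 0.25, and both overlapped between the groups. Hoxa13, the terminal limb gene, was at −0.38 ± 0.39.

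Of the members that hold a miR-196 seed match, Hoxa9, with 1 match, rose, and no other passed. Hoxa7, with 4 matches, had 123 and 160 normalised counts in Dicer WT and 188 and 210 in Dicer KO, a change of 0.50 ± 0.25 (limma adjusted p = 0.217). Hoxc8 lay below the minimum mean; with 42.4 and 40.1 in Dicer WT and 50.4 and 58.9 in Dicer KO it was at 0.39 ± 0.31 in the fit with a minimum of 10 (adjusted p = 0.417). Hoxa5 was at −0.33 ± 0.27, and Hoxa4 at 0.03 ± 0.31 in the fit with a minimum of 10. Hoxb1, Hoxb6 and Hoxb7 had no exonic read in either Dicer group. Of the 10 genes listed as textbook miR-196 and miR-10 targets, 4 were tested and 1, Hoxa9, rose. Over all genes tested 9.28% rose. Hoxb8 and Hoxd8, the best known targets of miR-196, and Hoxd10, the best known target of miR-10b, had 0 exonic reads in all 12 libraries.

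The remaining tested members did not pass either. Hoxc5 was at 0.55 ± 0.28 with 66.9 and 80.2 in Dicer WT and 111 and 105 in Dicer KO, and its libraries did not overlap. Hoxa6, Hoxc9, Hoxa3 and Hoxc6 were at 0.16, 0.05, −0.06 and −0.10, each smaller than its standard error. Summed over a cluster, HoxA stood at 210 and 309 RPM in Dicer WT and 265 and 336 in Dicer KO. HoxC stood at 49.1 and 69.6 in Dicer WT and 52.8 and 64.6 in Dicer KO. The groups overlapped for both sums, so a shift of a whole cluster was not detectable beyond the spread between libraries.

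**Figure D4:**
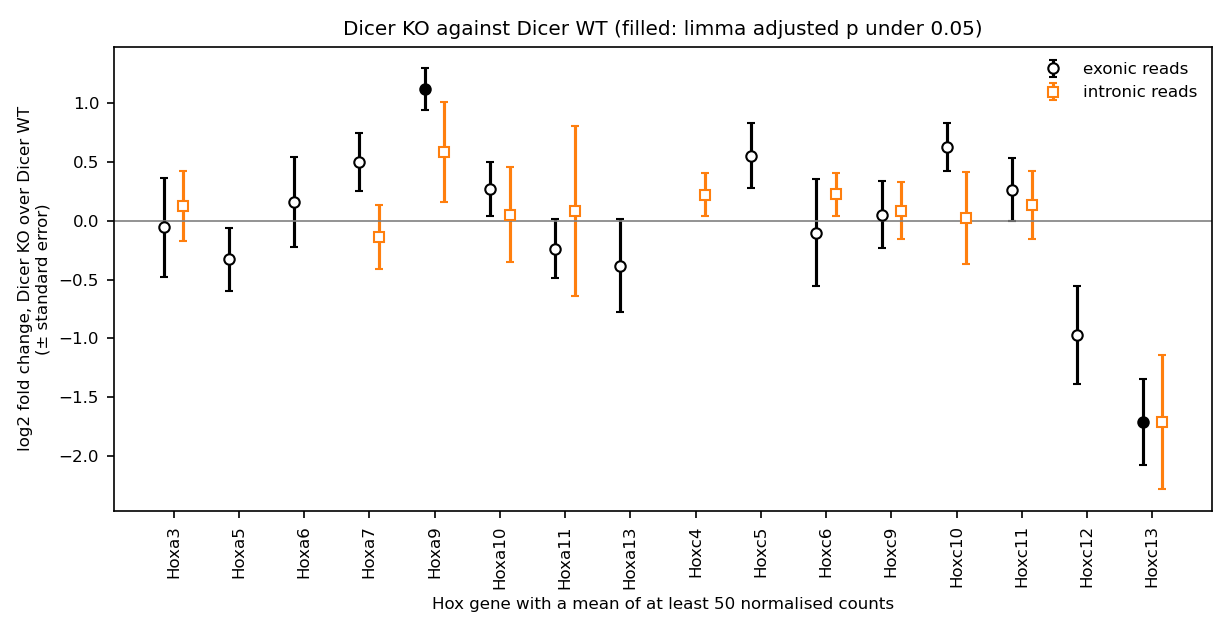
Log2 fold change of Dicer KO over Dicer WT with its standard error (vertical) for tested HoxA and HoxC genes (horizontal), in exonic reads (black circles) and intronic reads (orange squares), filled where the limma adjusted p is under 0.05. Hoxa9 at 1.12 and Hoxc13 at −1.71 in exonic reads are the filled points, and the intronic value of Hoxc13 lies at the same height without passing.

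In intronic reads, 11 members were tested and 0 passed limma, against 6.51% of 10215 genes; 1 had an unadjusted p under 0.05, and 0 passed by limma with voom weights or in the authors' deposited table. That member was Hoxc13, with 57.8 and 104 normalised counts in Dicer WT and 37.5 and 14.0 in Dicer KO, a log2 fold change of −1.71 ± 0.57 (limma adjusted p = 0.154). Its intronic and exonic values were thus of the same size. Hoxa9 had 85.8 and 195 intronic counts in Dicer WT and 223 and 171 in Dicer KO, a change of 0.59 ± 0.43 (adjusted p = 0.437), and its groups overlapped. The difference between its exonic and intronic values was not tested. Hoxc10 was at 0.02 ± 0.39 and Hoxa10 at 0.05 ± 0.41. The groups did not overlap for 3 of 11 members, against 57.5% of all genes. Hoxa11 was the least precise, with intronic counts of 54.95 and 157 in Dicer WT and 173 and 56.02 in Dicer KO (0.08 ± 0.72). Of the 14 or 15 HoxA and HoxC genes measured in introns, 13 of 15 were higher in Dicer WT library 2 and 1 of 14 in Dicer KO library 2. The part of these library differences in the intronic values was not tested.

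Hotair, Hottip and Hotairm1 were not among the genes with exonic values, so their levels are not known. Of 9 non-coding RNAs of the clusters with exonic values, microRNA genes included, only Hoxa11as, the antisense transcript of Hoxa11, had enough reads to test. It had 664 and 929 normalised counts in Dicer WT and 380 and 595 in Dicer KO, a change of −0.72 ± 0.29 (limma adjusted p = 0.146). Whether strand was used in counting is not given in the sources used here, so its reads and those of Hoxa11 may not be separate.

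Hox proteins bind DNA together with PBX, MEIS and PREP homeodomain proteins. Of 9 such genes 8 were tested in Dicer KO, of which 3 rose, 2 fell and 3 did not pass, with a median of 0.40 against 0.01 for all genes. Over all genes tested 9.28% rose and 7.36% fell. In intronic reads 9 were tested, of which Pknox2 rose by 1.11 and Meis2 fell by 2.46, against 6.51% of all genes called. In exonic reads Pbx2, Pbx3 and Pknox2 rose by 0.97 ± 0.21, 0.83 ± 0.15 and 0.99 ± 0.15 (limma adjusted p = 0.0387, 0.0232 and 0.0158). Meis2, which marks the upper limb in the embryo, had 243 and 294 normalised counts in Dicer WT and 47.7 and 42.3 in Dicer KO and fell by 2.55 on the log2 scale (adjusted p = 0.00651). Pknox1, which encodes PREP1, fell by 0.89 (adjusted p = 0.0291). Meis1 was at 0.32 ± 0.19.

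Polycomb proteins keep silent Hox genes off and trithorax proteins keep active ones on. Of 23 Polycomb genes 4 rose, 0 fell and 19 did not pass, with a median of 0.21 against 0.01 for all genes. Over all genes tested 16.6% were called, with 9.28% higher and 7.36% lower. The share of calls in both directions together is thus near that of all genes, while all 4 calls were higher. Ezh1 (0.94), Mtf2 (0.74), Rnf2 (0.63) and Suz12 (0.63) rose. In the authors' deposited table Rnf2 and Suz12 did not pass, with adjusted p-values of 0.0816 and 0.0794. In intronic reads 0 of 19 tested Polycomb genes passed limma, where 6.51% of all genes did, and 3 had an unadjusted p under 0.05. Ezh2, the main H3K27 methyltransferase of dividing cells, was at 0.01 ± 0.15. Of 10 trithorax and H3K27 demethylase genes 0 passed limma and 2 had an unadjusted p under 0.05. In exonic reads of the 3 comparisons with vector 0 of 23 Polycomb genes passed limma. Over all genes 0.0102%, 0.547% and 0.143% passed with Pbx3, Sox9 and Tead4. The Polycomb genes with an unadjusted p under 0.05 numbered 0, 2 and 3.

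Cdx proteins and retinoic acid receptors switch Hox genes on in the embryo. Cdx2 and Cdx4 were listed at 0 reads in all libraries. Of 5 tested genes of this list only Rarb rose, where 9.28% of all genes did. Rarb is a retinoic acid receptor that is itself induced by retinoic acid. It had 26.4 and 30.1 normalised counts in Dicer WT and 788 and 764 in Dicer KO, a log2 fold change of 4.74 ± 0.23 (limma adjusted p = 0.00205). Its intronic reads rose by 4.04 ± 0.16. Of 12 tested stromal markers 4 fell and 0 rose, where 7.36% of all genes fell and 9.28% rose, with Col1a1, a collagen of bone and skin, at −2.31 ± 0.18. The part of these changes in the Hox values was not tested.

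The 3 comparisons with vector ask whether an added transcription factor shifts Hox expression. They share the 2 vector libraries, so they are not independent of each other. No Hox gene passed limma in any of them, in exonic or intronic reads. Hoxa9 and Hoxc13, the pair called in Dicer KO, are given side by side. Hoxa9 was at −0.12 ± 0.17 with Pbx3, −0.02 ± 0.21 with Sox9 and −0.28 ± 0.15 with Tead4. Hoxc13 was at −0.68 ± 0.21, −0.06 ± 0.21 and 0.25 ± 0.17.

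In Pbx3 cells 11 members were tested and 0 passed limma, where 0.0102% of 9826 genes passed, a single gene, Pbx3 itself. One member, Hoxc13, had an unadjusted p under 0.05, and 0 passed with voom weights or in the authors' deposited table. Hoxc13 had 206 and 176 normalised counts in vector and 115 and 122 in Pbx3 cells. Both Pbx3 libraries were below both vector libraries, but the adjusted p was 1.0. Its intronic reads, below the minimum mean, were at −0.87 ± 0.33 in the fit with a minimum of 10 (adjusted p = 1.0). The groups did not overlap for 5 of 11 members, against 24.7% of all genes. The other tested exonic values ran between −0.12 and 0.16. Hoxc12, next to Hoxc13, lay below the minimum mean and was at −0.68 ± 0.44 in the fit with a minimum of 10.

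In Sox9 cells 10 members were tested and 0 passed limma, where 0.547% of 9698 genes did. None had an unadjusted p under 0.05, and 0 passed with voom weights or in the authors' deposited table. The groups did not overlap for 3 of 10 members, against 45.3% of all genes, and these were Hoxa5, Hoxc9 and Hoxc10. Hoxc9, a gene of thoracic identity, was the highest, with 41.4 and 44.5 normalised counts in vector and 53.4 and 74.2 in Sox9 cells (0.54 ± 0.32, limma adjusted p = 0.501). Hoxb9 had 0 exonic reads in vector and 4 and 3 reads in the Sox9 libraries, which is 0.515 and 0.489 RPM. A count of 0 in vector allows up to 0.153 RPM, and too few reads were present for a test.

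In Tead4 cells 9 members were tested and 0 passed limma, where 0.143% of 9796 genes did. None had an unadjusted p under 0.05, and 0 passed with voom weights or in the authors' deposited table. Without vector library 1, 1 member passed, Hoxa11, while the calls among all genes went from 14 to 2375. The groups did not overlap for 4 of 9 members, against 49.2% of all genes. Hoxa13 lay below the minimum mean and stood apart. It had 74 and 43 reads in vector and 25 and 21 in Tead4 cells, which is 6.72 and 5.01 RPM against 2.30 and 2.42. Both Tead4 libraries were below both vector libraries. In the fit with a minimum of 10 it was at −1.28 ± 0.31 (limma adjusted p = 0.155), so it did not pass. Hoxc6 was the highest tested member, with 48.3 and 52.3 in vector and 66.4 and 84.7 in Tead4 cells (0.57 ± 0.28, limma adjusted p = 0.39).

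**Figure D5:**
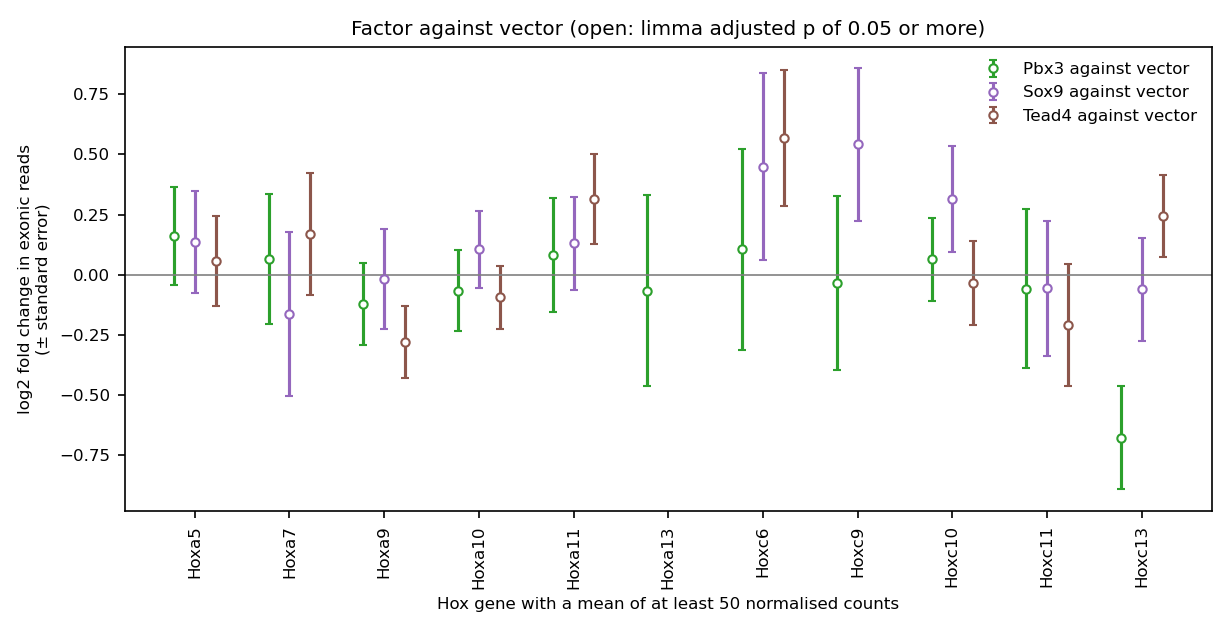
Log2 fold change in exonic reads with its standard error (vertical) for the tested Hox genes (horizontal), in Pbx3 (green), Sox9 (purple) and Tead4 (brown) cells over vector. All points are open, since no limma adjusted p is under 0.05, and the lowest point is Hoxc13 in Pbx3 cells at −0.68.

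In intronic reads of these comparisons only Hoxa3, Hoxa10, Hoxc4 and Hoxc6 reached the minimum mean. None of the 4 passed limma with Pbx3, Sox9 or Tead4, where 0%, 1.99% and 1.61% of all genes did. The members with an unadjusted p under 0.05 numbered 0, 1 and 1, and in both cases this was Hoxc6; 0 passed with voom weights or in the authors' deposited table. It had 77.1 and 87.0 intronic counts in vector and 107 and 145 in Sox9 cells (0.60 ± 0.22, limma adjusted p = 0.223). Against the same vector libraries it had 85.9 and 95.6 in vector and 129 and 151 in Tead4 cells (0.62 ± 0.19, limma adjusted p = 0.183).

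Of the Hox partners, Pbx3 itself was 7.04 ± 0.21 higher on the log2 scale where it was added (limma adjusted p = 0.0013). No other of the 8 tested partners passed limma in exonic reads of the 3 comparisons, and with Sox9 and Tead4 1 and 2 of them had an unadjusted p under 0.05. Over all genes 0.0102%, 0.547% and 0.143% passed in exonic reads with Pbx3, Sox9 and Tead4. In intronic reads 6 partners were tested, and 0, 1 and 0 passed with Pbx3, Sox9 and Tead4. Over all genes 0%, 1.99% and 1.61% passed. The partners with an unadjusted p under 0.05 in intronic reads numbered 1, 3 and 3. The median of the 6 with Sox9 was 0.39 against −0.01 for all genes. HoxA summed to 228 and 202 RPM in vector. Pbx3 cells had 191 and 237, Sox9 cells 225 and 232, and Tead4 cells 208 and 236. HoxC summed to 80.01 and 75.2 RPM in vector, 71.5 and 72.2 for Pbx3, 79.3 and 104 for Sox9, and 86.9 and 80.05 in Tead4 cells. For HoxC both Pbx3 libraries lay below vector and both Tead4 libraries above it, the lower of them narrowly, while the other sums overlapped with vector.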

How the data were processed

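Total RNA was sequenced as strand-specific single-end libraries, per the labels' protocols. The authors' tools were Bowtie2 and DESeq 1.10.1, and their build was mm9, per the submitters' processing notes. How reads were assigned to exons and introns, with which gene models and whether by strand, is not given in the sources used here. The deposited signal columns are the authors' base means of each group, per the file headers, and they solve as means of read counts divided by size factors. The deposited ratio and log2 columns hold the treated over control mean, and the deposited p-value columns hold the authors' raw and adjusted p-values, per the file headers.

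The labels list 1 sample per group. Each mean was solved for whole reads of 2 libraries, with a unique answer for 100% of genes at a tolerance of 1e-09; the vector reads differed for 0 genes between the 3 tables. The recovery was tested on simulated data. No columns were left unmapped (0). RPM values use the reads of the table as the total, and lengths are merged GENCODE M21 exons, which need not match the authors' gene models.

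Tests compared 2 libraries with 2 on log2(normalised count + 1) in limma 3.58.1 (R 4.3.3), using its mean-variance trend. Genes entered at a mean normalised count of 50 or more, with Benjamini-Hochberg adjustment over the table and a threshold of 0.05. This fit was also tested on simulated data. All Hox genes entered the counts, but the values of some genes are not reported here. The others at 50 or more normalised counts are described, those between 10 and 50 where a comparison turns on them, and the rest are named as having too few reads. The Hox genes, the gene lists and the marker lists were chosen with earlier results of these data known. Alternatives were minimum means of 10 and 200 and none, pseudocounts of 0.5 and 8, scaling to total reads, voom weights, the authors' adjusted p, a joint fit of the vector and factor libraries, and each library left out in turn.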

Additional observations from a re-analysis of the deposited data

How the results depend on the processing

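Hoxa9 and Hoxc13 passed in Dicer KO exonic reads under minimum means of 10 and 200 or none, pseudocounts of 0.5 and 8, scaling to total reads, voom weights, the authors' adjusted p and with either Dicer WT library left out. Leaving out 1 library at a time gave 0 to 2 Hox genes called in Dicer KO exonic reads and 0 to 1 in Tead4 exonic reads; without Dicer KO library 1 it was 0, without Dicer KO library 2 it was 1, and without vector library 1 it was 1 with Tead4. The cause was not tested. A lone library is assumed to vary like the other group. The other comparisons kept 0 Hox genes called under every alternative that kept all libraries. With the authors' size factors, the cluster sums moved by less than the spread between libraries. Leaving out a library could hardly exceed that spread, which comes from the same libraries, so it does not test the sums. The log2 ratio of the HoxA sum in Dicer KO was 0.21 with all libraries. It was −0.04 without Dicer WT library 1 and 0.52 without Dicer WT library 2. The background did move: with all libraries kept, genes called in exonic reads numbered 1 to 13 with Pbx3, 23 to 165 with Sox9 and 9 to 205 with Tead4. Few reads limit the HoxB and HoxD genes, the intronic reads of most members, and Hoxa2, Hoxa4, Hoxc4 and Hoxc8 in every comparison of exonic reads. With Pbx3, Sox9 and Tead4, 9, 10 and 11 HoxA and HoxC genes lay between 10 and 50 and were not tested. Hoxa3, Hoxa6, Hoxc5 and Hoxc12 were among them in all 3 comparisons. No paired analysis was possible because the labels list 1 sample per group and give the libraries no numbers.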

Other observations

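Genes that flank the clusters were described from the same tables. Of 8 tested neighbours 2 rose in Dicer KO exonic reads and 0 fell, with a median of 0.24 against 0.01 for all genes, of which 9.28% rose and 7.36% fell. In intronic reads 0 of 8 passed limma, where 6.51% of all genes did, and 2 had an unadjusted p under 0.05. Both genes that rose lie beyond the Hoxc4 end of the HoxC cluster. Smug1, a uracil DNA glycosylase, had 525 and 465 normalised counts in Dicer WT and 1331 and 1203 in Dicer KO (1.36 ± 0.15, limma adjusted p = 0.00799). Cbx5, which encodes the heterochromatin protein HP1 alpha, had 21132 and 19266 in Dicer WT and 32504 and 33225 in Dicer KO (0.70 ± 0.14, limma adjusted p = 0.0321). Calcoco1 and Atp5g2, beyond the Hoxc13 end, were at −0.39 ± 0.30 and 0.09 ± 0.14. Skap2 and Hibadh, which flank HoxA, were at −0.30 ± 0.16 and −0.17 ± 0.14. Mtx2 and Lnp, which flank HoxD, were at 0.55 ± 0.17 and 0.39 ± 0.17 without overlap between the groups (limma adjusted p = 0.0881 and 0.176). Evx1 and Evx2, the homeobox genes next to Hoxa13 and Hoxd13, were listed at 0 reads in all libraries.

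Other transcription factors of limb and body position were listed with the Hox genes. Tbx5 and Tbx4, which mark forelimb and hindlimb, and Meox2, Lmx1b and Zic1 were listed at 0 reads in all 12 libraries. Pitx1, a hindlimb factor, was present at 28.2 to 52.4 RPM and Tbx15, a factor of skin and limb mesenchyme, at 169 to 264. Of 8 tested genes of this list 2 fell and 0 rose in Dicer KO exonic reads, where 7.36% of all genes fell. In intronic reads 0 of 6 passed limma, where 6.51% of all genes did, and 2 had an unadjusted p under 0.05. Emx2, which is needed for the shoulder blade and the urogenital tract, had 360 and 190.5 normalised counts in Dicer WT and 58.7 and 81.6 in Dicer KO and fell by 1.91 on the log2 scale (limma adjusted p = 0.0326). In the authors' deposited table Emx2 did not pass, with an adjusted p of 0.0641. Tbx18, a factor of somites and ureter mesenchyme, fell by 0.88 (adjusted p = 0.0414). Lhx9, a limb and gonad factor, had 69.8 and 305 in Dicer WT and 3.67 and 25.8 in Dicer KO and did not pass (−3.72 ± 1.07, limma adjusted p = 0.0725).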
